A study of Mus musculus with 12 samples.

Results

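The expression of 10 genes that govern entry into DNA replication was followed in sorted microglia: the D-type cyclins *Ccnd1*, *Ccnd2* and *Ccnd3*, the E-type cyclins *Ccne1* and *Ccne2*, the A-type cyclin *Ccna2*, the kinase *Cdk6* and the inhibitors *Cdkn1a*, *Cdkn1b* and *Cdkn2c*. They were taken by gene symbol from the 55401 gene identifiers counted in each library, and all 10 were among the 16451 genes expressed highly enough to be tested. In G1, mitogenic signals raise D-type cyclins, which bind CDK4 or CDK6 and phosphorylate the retinoblastoma protein. E2F factors are thereby released and induce genes of DNA replication, among them the E-type cyclins, which act with CDK2, and later cyclin A2. The products of *Cdkn1a* (p21) and *Cdkn1b* (p27) bind cyclin-CDK2 complexes, and the product of *Cdkn2c* (p18) binds CDK4 and CDK6. Microglia, the resident macrophages of the brain, divide rarely in the healthy adult and proliferate after ischemic injury.

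RNA was sequenced from CD45int CD11b+ cells, with 3 biological replicates in each of 4 groups, which were WT and miKO mice after Sham surgery (WT-Sham, miKO-Sham) or after stroke (WT-tFCI, miKO-tFCI). All mice were male and carried *Hdac3* loxp/loxp alleles. WT mice were CX3CR1 wt/wt, and miKO mice were CX3CR1 CreER/wt, so that the microglial deletion of the histone deacetylase HDAC3 in miKO came with the replacement of 1 *Cx3cr1* allele by CreER, which WT mice did not carry. Tamoxifen, which activates CreER, was injected on 5 consecutive days at 6 to 8 weeks of age to induce the deletion, and surgery followed at least 1 month later. The methods do not say separately whether WT mice received it. Transient focal cerebral ischemia (tFCI) was a 60 min occlusion of the left middle cerebral artery, and Sham mice had the same anesthesia and exposure of the artery without occlusion. Cells were taken 3 days after tFCI, and each replicate combined the cells of 3 to 4 hemispheres. The labels place replicate 1 of each group in batch 1 and replicates 2 and 3 in batch 2. The comparisons ask how stroke changes these genes in WT and in miKO microglia, how the loss of HDAC3 changes them with and without stroke, and whether the effect of genotype depends on surgery.

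Each library held 7697864 to 9452222 counts on genes. Levels are given as CPM, counts scaled to a common library size after TMM, an edgeR method that corrects for differences in RNA composition. *Hdac3* was at 35.0, 44.0 and 46.4 CPM in WT-Sham and at 25.8, 25 and 20.9 CPM in miKO-Sham. The values after stroke were 54.0, 52.9 and 43.9 CPM in WT-tFCI. The miKO-tFCI libraries held 36.0, 27.1 and 28.9 CPM. Both miKO groups therefore lay below their WT groups without overlap, and residual *Hdac3* reads were present in every miKO library. Of the 12 microglial markers, none was at 0 in every library, and their CPM summed to 31718 to 41249 (WT-Sham), 30677 to 35958 (miKO-Sham), 22411 to 24816 (WT-tFCI) and 11557 to 21720 (miKO-tFCI). Markers of monocytes and macrophages summed to 43.7 to 112 CPM, 82.4 to 219 CPM, 440 to 750 CPM and 636 to 1175 CPM in the same order. Replicate 1 of WT-tFCI and of miKO-tFCI stood apart from replicates 2 and 3 by higher summed monocyte and macrophage, dendritic, endothelial and astrocyte markers. Summed neutrophil and border-associated macrophage markers were lower in these libraries. Replicate 1 of WT-Sham stood apart by higher summed neutrophil markers and by higher summed monocyte and macrophage markers. In bulk RNA a change in the share of a cell type and a change in the RNA of each cell cannot be told apart, and the part of these markers in the differences below was not tested. miKO-Sham replicates 1 and 2 were the closest pair of libraries (chi-square 2.88 per degree of freedom, against 3.87 to 86.4 in the other pairs within groups) although the labels put them in different batches, and their deposited files carry the same sample name. They still differed by more than sampling noise, which cannot show whether they are separate preparations, and they were kept as separate libraries. Against replicate 3 their values were 42.7 and 46.1. If they came from 1 preparation, miKO-Sham would hold fewer than 3 independent replicates, and tests with this group would overstate its replication. Without replicate 1 of miKO-Sham, *Ccnd1* was no longer called and *Ccnd2* became called in miKO-Sham vs. WT-Sham, and without replicate 2 *Cdkn1b* was no longer called in miKO-tFCI vs. miKO-Sham. The interactions of genotype and surgery of *Ccnd1* (adjusted p = 0.125) and *Ccna2* (adjusted p = 0.0844) were lost without replicate 1, and that of *Cdkn1a* (adjusted p = 0.074) without replicate 2.

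On GRCm38, *Ccnd1* lay at chr7:144929931-144939925 on the minus strand, *Ccnd2* at chr6:127125162-127152193 (minus) and *Ccnd3* at chr17:47505051-47599691 (plus). *Ccne1* lay at chr7:38097984-38107534 (minus), *Ccne2* at chr4:11191351-11204779 (plus) and *Ccna2* at chr3:36564865-36572150 (minus). *Cdk6* lay at chr5:3341485-3531008 (plus), *Cdkn1a* at chr17:29090976-29100727 (plus), *Cdkn1b* at chr6:134920401-134925513 (plus) and *Cdkn2c* at chr4:109660876-109667189 (minus). All are protein-coding. Genes on the opposite strand overlapped 7 of the 10: *LTO1* shared 1100 exon bases with *Ccnd1*, *Ints8* shared 609 with *Ccne2*, *Exosc9* shared 510 with *Ccna2* and *Bysl* shared 361 with *Ccnd3*. Non-coding genes overlapped *Ccnd2*, *Cdk6* and *Cdkn1a*. The library kit does not mark strand, so reads from shared exon bases cannot be told apart. *Ccne1*, *Cdkn1b* and *Cdkn2c* overlapped no annotated gene.

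RefSeq promoter windows on GRCm38.p6 were held for 6 of the 10 genes, *Ccnd3*, *Ccne1*, *Cdk6*, *Cdkn1a*, *Cdkn1b* and *Cdkn2c*. The 250 bases before a transcription start are shown for *Ccne1*, *Cdkn2c* and *Cdkn1a*, which rose together after tFCI, and for *Cdkn1b*, which did not. Capitals mark the GC box GGGCGG, a binding motif of SP factors, on either strand (CCGCCC on the other), and the E2F motif TTCCCGC. Where a gene has more than 1 start, the start with the most GC boxes is shown.
*Ccne1*, chr7:38107491-38107740, minus strand: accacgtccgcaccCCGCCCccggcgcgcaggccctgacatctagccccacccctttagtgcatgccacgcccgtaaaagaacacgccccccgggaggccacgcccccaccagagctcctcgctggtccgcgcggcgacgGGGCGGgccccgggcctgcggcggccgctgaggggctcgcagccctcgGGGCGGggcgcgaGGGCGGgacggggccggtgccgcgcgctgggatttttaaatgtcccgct
*Cdkn2c*, chr4:109666757-109667006, minus strand: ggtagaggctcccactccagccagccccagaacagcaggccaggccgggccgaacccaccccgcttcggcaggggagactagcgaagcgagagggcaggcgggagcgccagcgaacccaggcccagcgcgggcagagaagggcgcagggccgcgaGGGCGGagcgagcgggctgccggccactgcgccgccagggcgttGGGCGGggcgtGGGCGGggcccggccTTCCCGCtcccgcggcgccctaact
*Cdkn1a*, chr17:29093519-29093768, plus strand: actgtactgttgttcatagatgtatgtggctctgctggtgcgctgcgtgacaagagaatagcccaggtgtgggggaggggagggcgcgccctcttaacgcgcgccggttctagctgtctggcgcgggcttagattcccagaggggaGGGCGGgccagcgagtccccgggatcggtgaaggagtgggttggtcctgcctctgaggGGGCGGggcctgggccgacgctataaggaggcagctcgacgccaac
*Cdkn1b*, chr6:134920151-134920400, plus strand: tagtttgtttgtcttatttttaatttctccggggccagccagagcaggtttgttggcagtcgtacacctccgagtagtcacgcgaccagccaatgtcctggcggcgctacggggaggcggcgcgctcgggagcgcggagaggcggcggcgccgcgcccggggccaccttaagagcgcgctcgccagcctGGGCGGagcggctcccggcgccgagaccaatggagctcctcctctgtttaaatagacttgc
These windows held 4, 3, 2 and 1 GC boxes in the order shown, and 32.74% of the 32851 RefSeq promoter windows of this length held at least 1. That share covers all starts, whereas the windows shown were picked for the most GC boxes. The other starts of *Cdkn2c* and *Cdkn1a* held 0. Of the genes not shown, *Ccnd3*, which also rose after tFCI, held 2 and 1 at its starts, and *Cdk6* held 0. An E2F motif, searched on both strands as TTCCCGC or else as TTCGCGC or else as TTGCCGC or else as TTGGCGC, was found in the window of *Cdkn2c* alone among the 4, beginning 25 bases before the start, and in 7.89% of all windows. The G+C content was 76.0% for *Ccne1*, 77.2% for *Cdkn2c*, 64.8% for *Cdkn1a* and 64.4% for *Cdkn1b*. A matching run of letters is a description of the window and not evidence of binding.

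**Figure D1:**
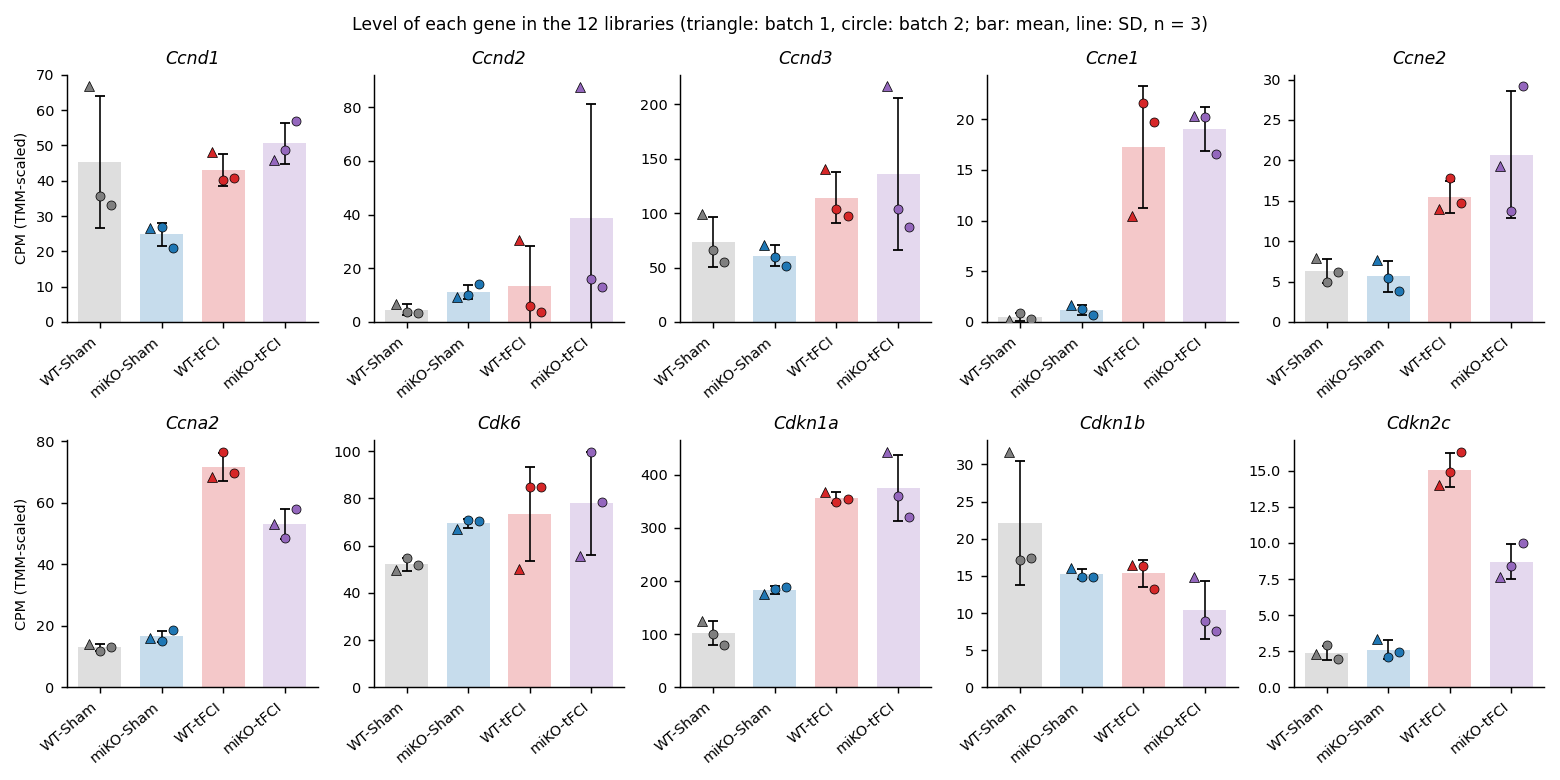
TMM-scaled CPM of each of the 10 genes (vertical axis, linear from 0, scale of its own in each panel) in the 4 groups, with triangles for batch 1, circles for batch 2, bars for the mean and lines for the SD (n = 3, cut off at 0). *Ccne1*, *Ccne2*, *Ccna2*, *Cdkn1a* and *Cdkn2c* were higher in all 6 tFCI libraries than in all 6 Sham libraries, and *Ccnd2* was highest in the batch 1 library of each tFCI group. The share of all genes with the same separation was not determined.

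Most of the 10 genes rose after stroke, among them cyclins of the D, E and A types and the inhibitors *Cdkn1a* and *Cdkn2c*. In WT-tFCI vs. WT-Sham, 6 of the 10 genes rose (*Ccnd3*, *Ccne1*, *Ccne2*, *Ccna2*, *Cdkn1a* and *Cdkn2c*) and 0 fell in edgeR's quasi-likelihood test, with an adjusted p (Benjamini-Hochberg) under 0.05 and a change of more than 0.58 on the log2 scale as thresholds, against 20.9% of all genes tested that rose and 11.7% that fell. In miKO-tFCI vs. miKO-Sham, 7 rose (the same 6 and *Ccnd1*) and *Cdkn1b* fell, against 21.9% and 13.9% of all genes. Fold changes are given on the log2 scale, with ± for the SE. The median log2 fold change of the 10 genes was 1.25 in WT and 1.12 in miKO, whereas that of all genes was 0.02 and 0.03. In miKO-Sham vs. WT-Sham, *Cdkn1a* rose and *Ccnd1* fell, 1 gene in each direction, against 8.58% and 6.80% of all genes. After stroke, 0 of the 10 passed in miKO-tFCI vs. WT-tFCI, against 4.08% of all genes that were higher and 4.71% that were lower. At an unadjusted p under 0.05 there were 4 in that comparison, *Ccnd2* higher and *Ccna2*, *Cdkn1b* and *Cdkn2c* lower. The share of all genes at this unadjusted threshold is not given, so these 4 cannot be read against it. In the same comparison the Wald test of DESeq2 called 1 of the 10, *Cdkn2c*, against 1718 of all genes (871 higher and 847 lower). Depending on the alternative, 0 to 2 of the 10 passed there. The comparisons of tFCI with Sham in WT and of genotypes in Sham share the WT-Sham libraries, and the other comparisons share libraries in the same way, so their results are given side by side only.

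**Figure D2:**
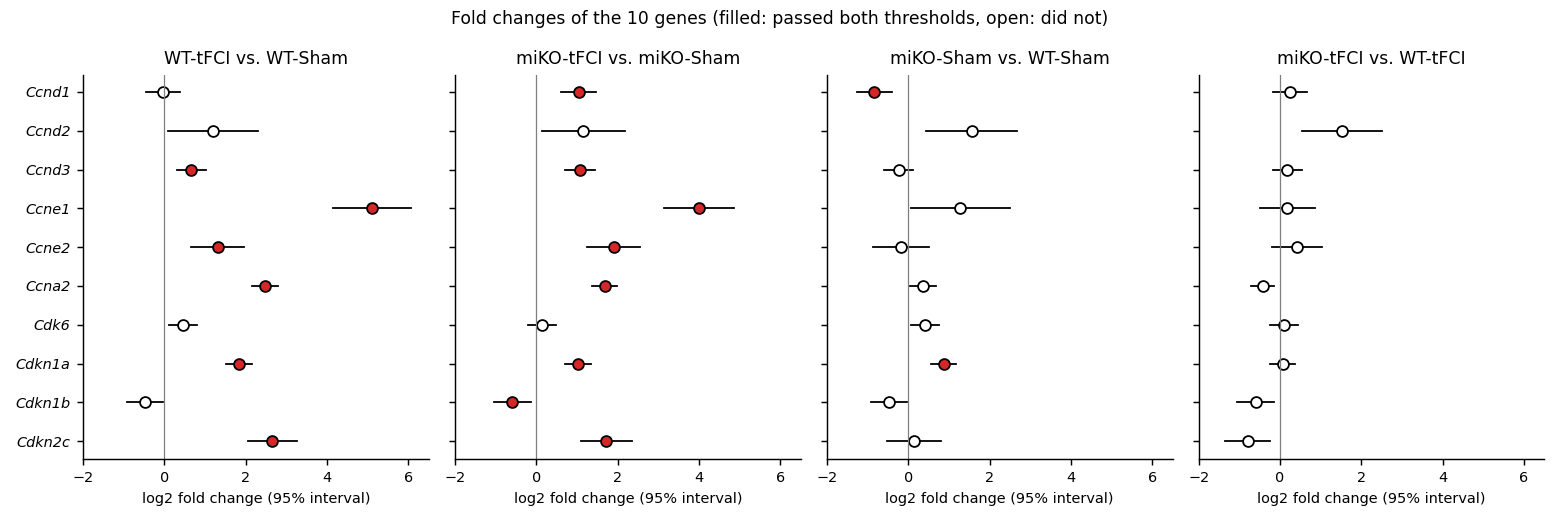
Log2 fold changes (horizontal axis) of the 10 genes (rows) in 4 comparisons, with 95% intervals from edgeR's quasi-likelihood fit over 12 libraries (n = 3 per group). Filled circles passed both thresholds, which holds for 6 genes in WT-tFCI vs. WT-Sham, 8 in miKO-tFCI vs. miKO-Sham, 2 in miKO-Sham vs. WT-Sham and 0 in miKO-tFCI vs. WT-tFCI.

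Among the D-type cyclins, *Ccnd1* was lower in miKO-Sham than in WT-Sham and rose with stroke in miKO, and it did not pass the thresholds with stroke in WT. Its level was 66.7, 35.6 and 33.2 CPM in WT-Sham, 26.5, 26.9 and 20.9 CPM in miKO-Sham and 48.1, 40.2 and 40.7 CPM in WT-tFCI. The miKO-tFCI libraries held 45.8, 48.8 and 57.0 CPM. Every miKO-Sham library was below every library of the other groups, and WT-Sham replicate 1 was the highest of all 12. The log2 fold change was -0.83 ± 0.20 (SE, adjusted p = 0.0103) in miKO-Sham vs. WT-Sham and 1.04 ± 0.20 (adjusted p = 0.000919) in miKO-tFCI vs. miKO-Sham. In WT-tFCI vs. WT-Sham it was -0.04 (95% interval -0.46 to 0.39), and in miKO-tFCI vs. WT-tFCI 0.25 (-0.17 to 0.67). The difference between the responses to surgery in miKO and in WT, tested as an interaction, was 1.08 ± 0.28 on the log2 scale (adjusted p = 0.0475) and was lost in 12 of 21 alternatives.
The lower level in miKO-Sham rested in part on batch 1: without WT-Sham replicate 1 the log2 fold change was -0.50 (adjusted p = 0.0621), without miKO-Sham replicate 1 it was -0.76 (adjusted p = 0.0528), and in batch 2 alone -0.54 (adjusted p = 0.0509). WT-Sham replicate 1 also held more neutrophil RNA, with a sum over 10 markers of 845 CPM against 78.1 and 50.8 CPM in replicates 2 and 3; the sums were 344 to 377 CPM in miKO-Sham, 155 to 216 CPM in WT-tFCI and 706 to 984 CPM in miKO-tFCI. None of the 10 was at 0 in every library, and 0 of the 9 tested passed in miKO-Sham vs. WT-Sham. The monocyte and macrophage markers of WT-Sham replicate 1 summed to 112 CPM against 43.7 and 48.2 CPM in replicates 2 and 3. In miKO-Sham they summed to 82.4 to 219 CPM. Whether neutrophils or monocytes and macrophages contributed to *Ccnd1* was not tested.

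*Ccnd2*, the D-type cyclin with the lowest level per exon length in Sham, varied widely between the replicates of the tFCI groups. It was at 6.85, 3.70 and 3.28 CPM in WT-Sham and at 9.30, 10.1 and 14.2 CPM in miKO-Sham. After stroke it reached 30.6, 5.77 and 3.90 CPM in WT, and 87.7, 16.0 and 13.1 CPM in miKO. Each miKO-Sham library was above each WT-Sham library, whereas the tFCI groups overlapped because replicate 1 of WT-tFCI was above replicates 2 and 3 of miKO-tFCI. The log2 fold change was 1.51 ± 0.46 in miKO-tFCI vs. WT-tFCI (adjusted p = 0.0503) and 1.56 ± 0.52 in miKO-Sham vs. WT-Sham (adjusted p = 0.0516), neither of which passed. Within batches, the difference in log2 CPM between miKO-tFCI and WT-tFCI was 1.51 in batch 1, with 1 library a group, and 1.56 in batch 2. In batch 2 alone the tFCI comparison passed (log2 fold change 1.54, adjusted p = 0.0079), whereas it did not without miKO-tFCI replicate 1 in a fit that kept the batch 1 libraries of the other groups (0.87, adjusted p = 0.354). The difference between tFCI and Sham in miKO was 3.20 in batch 1 and 0.26 in batch 2. The adjusted p of *Ccnd2* in miKO-tFCI vs. WT-tFCI ranged from 8.48e-09 to 0.354 over 16 alternatives, of which 8 passed. In miKO-Sham vs. WT-Sham 6 of 16 alternatives passed, with log2 fold changes from 1.03 to 2.26 over the 16, among them batch 2 alone (1.79, adjusted p = 0.0021) and the fit without miKO-Sham replicate 1 (2.26, adjusted p = 0.000661).

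Markers of several other cell types, though not of all, were high in the tFCI libraries with the most *Ccnd2*. The 8 dendritic cell markers summed to 120 CPM in WT-tFCI replicate 1 against 22.9 and 24.9 CPM in replicates 2 and 3, and to 348 CPM in miKO-tFCI replicate 1 against 52.5 and 53.3 CPM. The chemokine receptor *Ccr7* alone made up 71.1 CPM of the sum in WT-tFCI replicate 1 and 239 CPM in miKO-tFCI replicate 1, whereas *Xcr1*, a marker of cross-presenting dendritic cells, was at 1.34 CPM in the latter and 1.76 and 1.98 CPM in replicates 2 and 3. In WT-Sham the 8 markers summed to 20.7 to 27.7 CPM, and in miKO-Sham to 14.8 to 18.1 CPM. *Flt3*, the cytokine receptor of dendritic cell progenitors, was at 11.8 and 30.7 CPM in these 2 batch 1 libraries and at 1.73 to 3.34 CPM in the other tFCI libraries, and *Clec9a*, a further marker of these cells, was at 1.55 CPM or less in all 12. None of the 8 was at 0 in every library, and 1 of the 7 tested rose in miKO-tFCI vs. WT-tFCI. The 8 endothelial and pericyte markers summed to 152 and 233 CPM in the same 2 libraries, to 47.3 to 97.9 CPM in the other tFCI libraries and to 13.7 to 28.4 CPM in Sham. The 8 astrocyte markers summed to 304 and 631 CPM, to 173 to 245 CPM and to 114 to 198 CPM, respectively. The sum of the 12 monocyte and macrophage markers was likewise highest in replicate 1 of both tFCI groups. It was 750 CPM against 440 and 497 CPM in WT-tFCI, and 1175 CPM against 636 and 858 CPM in miKO-tFCI. *Fn1* alone held 446 CPM of the sum in WT-tFCI replicate 1. *F13a1* instead was lowest in replicate 1 of both groups, at 32.8 CPM against 51.4 and 45.9 CPM in WT-tFCI. In miKO-tFCI it was at 71.0 CPM against 170 and 323 CPM. The sum of border-associated macrophage markers was lowest in replicate 1 of both tFCI groups. It was 152 CPM against 264 and 246 CPM in WT-tFCI, and 251 CPM against 526 and 552 CPM in miKO-tFCI. Neutrophil markers were likewise lowest in replicate 1, with 155 CPM against 201 and 216 CPM in WT-tFCI and 706 CPM against 983 and 984 CPM in miKO-tFCI. miKO-Sham replicate 3, the highest of its group in *Ccnd2*, also had the highest sum of the 12 monocyte and macrophage markers in that group (219 CPM, against 87.7 and 82.4 CPM). *F13a1* alone made up 85.2 CPM of this sum, against 11.7 and 9.30 CPM in replicates 1 and 2. The border-associated macrophage markers of this library were also the highest of the group, with 249 CPM against 86.8 and 79.2 CPM. Its endothelial and pericyte markers were the lowest of the group, with 13.7 CPM against 18.9 and 17.9 CPM. Antibodies against CD11c and Gr1 were in the sorting panel. The paper gives the gate of sorted microglia as CD11b+ CD45int, and names the exclusion of CD11c and Gr1 for sorted macrophages. The part of these cells in the level of *Ccnd2* was not tested.

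**Figure D3:**
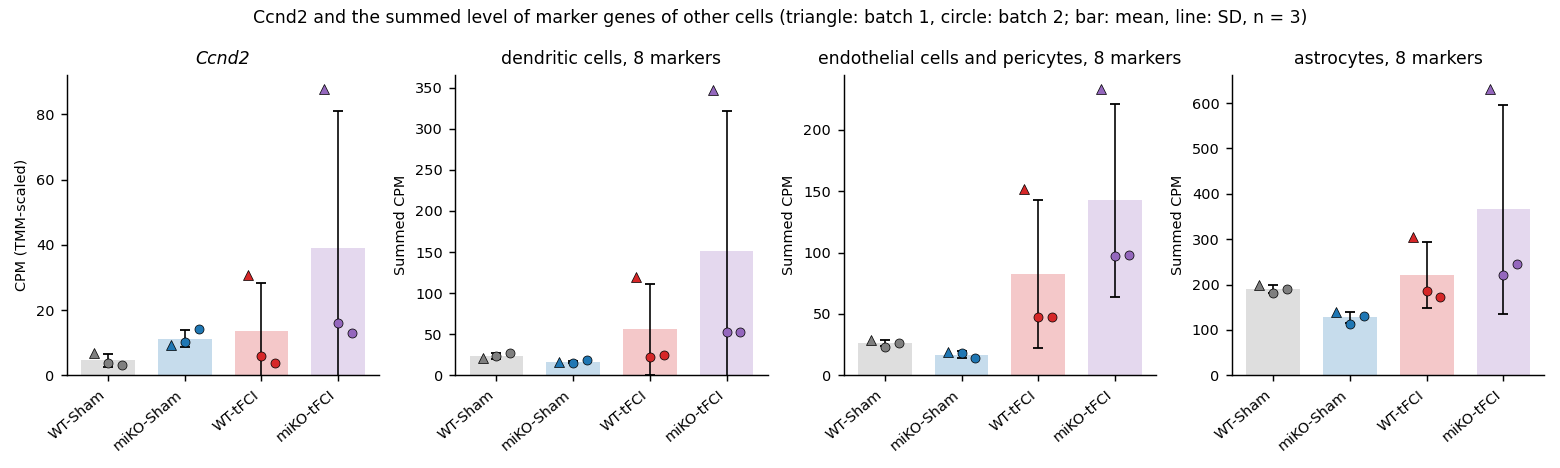
*Ccnd2* in TMM-scaled CPM and the summed CPM of 8 markers each of dendritic cells, endothelial cells and pericytes, and astrocytes (vertical axes, linear from 0) in the 12 libraries, with triangles for batch 1, circles for batch 2, bars for the mean and lines for the SD (n = 3, cut off at 0). In both tFCI groups the batch 1 library lay above the batch 2 libraries in all 4 panels.

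*Ccnd3*, the D-type cyclin prominent in blood cells, rose after stroke in both genotypes. It was at 98.9, 66.0 and 55.4 CPM in WT-Sham and 141, 104 and 97.5 CPM in WT-tFCI, where replicate 3 lay just below WT-Sham replicate 1. It was at 70.8, 59.9 and 51.5 CPM in miKO-Sham and 217, 104 and 87.6 CPM in miKO-tFCI, which did not overlap. Stroke changed it by 0.66 ± 0.17 on the log2 scale in WT (adjusted p = 0.00615) and 1.08 ± 0.17 in miKO (adjusted p = 0.000178). In each group replicate 1, from batch 1, was the highest. The WT value missed the thresholds without WT-Sham replicate 3 (0.56, adjusted p = 0.0487), without WT-tFCI replicate 2 (0.55, adjusted p = 0.0504) and without the batch term (0.64, adjusted p = 0.136). In batch 2 alone the change was 0.74 in WT (adjusted p = 0.00384) and 0.76 in miKO (adjusted p = 0.00383). The miKO value was 0.80 without miKO-tFCI replicate 1, the library with the highest level, and passed in all 16 alternatives. Between genotypes the log2 value was 0.18 (95% interval -0.18 to 0.53) after tFCI and -0.24 (-0.60 to 0.12) in Sham.

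Per exon length, *Ccnd1* and *Ccnd3* made up most of the D-type cyclin RNA in Sham, and nearly all of it in WT-Sham. In WT-Sham, *Ccnd1* held 48.9% to 54.1% of the summed CPM per kb of the 3 genes, *Ccnd3* 43.1% to 48.6% and *Ccnd2* 2.54% to 2.78%. In miKO-Sham, *Ccnd1* held 37.5% to 42.0% and *Ccnd2* 6.73% to 12.8%, neither of which overlapped WT-Sham. In WT-tFCI, *Ccnd3* held the largest part in every library, 54.4% to 56.5%, and *Ccnd2* held 11.0% in replicate 1 and 2.92% and 2.05% in replicates 2 and 3. In miKO-tFCI, *Ccnd2* held 21.3%, 7.09% and 5.93%, and the share of *Ccnd1* spread from 22.3% to 51.5%. These shares depend on which exons are counted as the length of each gene.

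The E-type cyclins rose with stroke, and *Ccne1* rose the most of the 10 genes. *Ccne1*, cyclin E1, was at 0.24, 0.90 and 0.31 CPM in WT-Sham (2, 8 and 3 counts) and at 1.67, 1.25 and 0.64 CPM in miKO-Sham (12, 9 and 5 counts). After stroke it was at 10.4, 21.6 and 19.7 CPM in WT, and at 20.3, 20.2 and 16.6 CPM in miKO. Every tFCI library was above every Sham library, and within tFCI the lowest was WT-tFCI replicate 1. From 13 counts in WT-Sham and 436 in WT-tFCI, the level was 35.9-fold higher, with an exact 95% interval of 20.8 to 67.9 that covers counting error only. From 26 counts in miKO-Sham and 492 in miKO-tFCI, it was 16.3-fold higher (11.0 to 25.3). The fitted log2 fold change was 5.11 ± 0.45 in WT (adjusted p = 7.38e-07) and 4.0 ± 0.40 in miKO (adjusted p = 3.74e-06). Between genotypes the fitted value was 0.18 (95% interval -0.49 to 0.85) after tFCI and 1.28 (0.06 to 2.50, adjusted p = 0.142) in Sham. The interaction was -1.10 (95% interval -2.49 to 0.28).

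*Ccne2*, cyclin E2, was at 7.93, 4.93 and 6.16 CPM in WT-Sham and 7.64, 5.41 and 3.84 CPM in miKO-Sham. After stroke the 3 WT libraries held 14.0, 17.8 and 14.7 CPM, and the 3 miKO libraries 19.3, 13.7 and 29.2 CPM. The Sham groups overlapped each other, the tFCI groups overlapped each other, and all tFCI libraries exceeded all Sham libraries. With stroke it rose by 1.31 ± 0.30 in WT (log2 scale, adjusted p = 0.00351) and by 1.90 ± 0.31 in miKO (adjusted p = 0.000232). Per exon length, the ratio of *Ccne1* to *Ccne2* was 0.04 to 0.24 in WT-Sham and 0.22 to 0.30 in miKO-Sham, and 0.98 to 1.76 in WT-tFCI and 0.75 to 1.94 in miKO-tFCI. *Ccne2* was thus the more abundant E-type cyclin in all 6 Sham libraries, while after stroke *Ccne1* exceeded it in 4 of 6 libraries.

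*Ccna2*, cyclin A2, which drives S phase with CDK2 and later acts with CDK1, was steady between replicates. It was at 14.2, 11.7 and 13 CPM in WT-Sham and 16.0, 15.1 and 18.6 CPM in miKO-Sham. After stroke the WT level was 68.2, 76.6 and 69.8 CPM, and the miKO level 53.1, 48.4 and 58.0 CPM. The order of the groups was WT-Sham, miKO-Sham, miKO-tFCI and WT-tFCI with no overlap between neighbours. The log2 fold change with stroke was 2.47 ± 0.15 in WT (adjusted p = 1.79e-08) and 1.68 ± 0.15 in miKO (adjusted p = 9.12e-07), and the interaction was -0.78 ± 0.20 (adjusted p = 0.0449), which was lost in 16 of 21 alternatives. Between genotypes the log2 fold change was 0.35 ± 0.15 in Sham (adjusted p = 0.124) and -0.43 ± 0.14 after tFCI (adjusted p = 0.0586), neither of which passed. Within batches the interaction was -0.53 in batch 1 and -0.90 in batch 2.

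*Cdk6*, a kinase that D-type cyclins activate, passed in none of the 5 tests. It was at 49.6, 54.9 and 51.6 CPM in WT-Sham, 67.1, 70.6 and 70.3 CPM in miKO-Sham and 50.3, 84.7 and 84.7 CPM in WT-tFCI. The miKO-tFCI libraries held 55.8, 99.4 and 78.6 CPM. The Sham groups did not overlap, and in both tFCI groups replicate 1 was the lowest and lay among or near the WT-Sham values. The log2 fold change was 0.42 ± 0.16 in miKO-Sham vs. WT-Sham (adjusted p = 0.0949) and 0.46 ± 0.16 in WT-tFCI vs. WT-Sham (adjusted p = 0.0368), the latter below the fold threshold. The difference in log2 CPM between WT-tFCI and WT-Sham was 0.02 in batch 1 and 0.67 in batch 2. In batch 2 alone the latter comparison passed (log2 fold change 0.68, adjusted p = 0.0055), as it did without WT-tFCI replicate 1 (0.61, adjusted p = 0.0177). In miKO-tFCI vs. miKO-Sham it was 0.14 (95% interval -0.21 to 0.48) and in miKO-tFCI vs. WT-tFCI 0.09 (-0.25 to 0.44).

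Among the inhibitors, *Cdkn1a* rose with stroke and was higher in miKO-Sham than in WT-Sham. It was at 124, 100.2 and 79.6 CPM in WT-Sham, 175, 186 and 188 CPM in miKO-Sham and 368, 349 and 354 CPM in WT-tFCI. The miKO-tFCI libraries held 444, 360.4 and 321 CPM. The Sham groups did not overlap, the tFCI groups did, and every tFCI library exceeded every Sham library. The log2 fold change was 0.87 ± 0.15 in miKO-Sham vs. WT-Sham (adjusted p = 0.000764), 1.83 ± 0.15 in WT-tFCI vs. WT-Sham (adjusted p = 4.34e-07) and 1.02 ± 0.15 in miKO-tFCI vs. miKO-Sham (adjusted p = 8.75e-05). In miKO-tFCI vs. WT-tFCI it was 0.06 (95% interval -0.25 to 0.37), and the interaction was -0.81 ± 0.21 (adjusted p = 0.0437), which was lost in 13 of 21 alternatives. Within batches the interaction was -0.22 in batch 1 and -1.11 in batch 2.

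*Cdkn1b* fell with stroke in miKO. It was at 31.7, 17.1 and 17.4 CPM in WT-Sham, 16.1, 14.8 and 14.9 CPM in miKO-Sham and 16.5, 16.3 and 13.3 CPM in WT-tFCI. The miKO-tFCI libraries held 14.9, 8.92 and 7.54 CPM. WT-Sham replicate 1 was the highest of the 12 and miKO-tFCI replicates 2 and 3 were the lowest. The neutrophil markers of these 3 libraries summed to 845, 983 and 984 CPM, and those of miKO-tFCI replicate 1 to 706 CPM. Whether neutrophils contributed to the level of *Cdkn1b* was not tested. Its log2 fold change was -0.59 ± 0.21 in miKO-tFCI vs. miKO-Sham (adjusted p = 0.0367), which passed by a narrow margin and was lost in 10 of 16 alternatives, with adjusted p values from 0.0115 to 0.157. Without miKO-Sham replicate 2 it was -0.53 (adjusted p = 0.0886). The difference in log2 CPM was -0.11 in batch 1 and -0.84 in batch 2. In miKO-tFCI vs. WT-tFCI the log2 fold change was -0.60 ± 0.21 (adjusted p = 0.0905), and it passed in batch 2 alone. In WT-tFCI vs. WT-Sham it was -0.47 ± 0.20 (adjusted p = 0.0824) and in miKO-Sham vs. WT-Sham -0.48 ± 0.21 (adjusted p = 0.13).

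*Cdkn2c*, the INK4 inhibitor among the 10, rose with stroke and had lower values in miKO-tFCI than in WT-tFCI. It was at 2.28, 2.91 and 1.95 CPM in WT-Sham and 3.33, 2.08 and 2.43 CPM in miKO-Sham, whereas the WT-tFCI libraries held 14.0, 14.9 and 16.3 CPM, and the miKO-tFCI libraries 7.64, 8.42 and 10.0 CPM. The Sham groups overlapped, the tFCI groups did not, and both tFCI groups lay above both Sham groups. With stroke the log2 rise was 2.66 ± 0.29 in WT (adjusted p = 5.99e-06) and 1.72 ± 0.29 in miKO (adjusted p = 0.00029). In miKO-tFCI vs. WT-tFCI it was -0.80 ± 0.26 (95% interval -1.35 to -0.24, adjusted p = 0.0649), which did not pass. It passed in 4 of 16 alternatives, the DESeq2 Wald test among them (adjusted p = 0.0387), and leaving out a single library moved it between -0.72 and -0.92. The interaction was -0.93 ± 0.41 (adjusted p = 0.244).

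**Figure D4:**
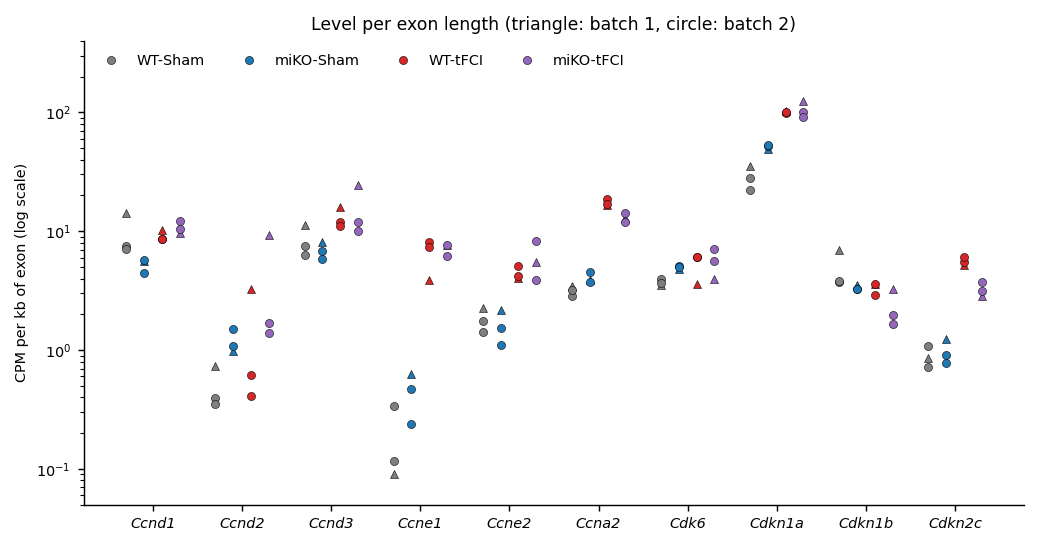
Level of the 10 genes as TMM-scaled CPM per kb of exon (vertical axis, log scale) in the 12 libraries, coloured by group, with triangles for batch 1 and circles for batch 2 (n = 3 per group). *Cdkn1a* was the highest in every group, at 22.4 to 125 CPM per kb, and *Ccne1* moved from 0.09 to 0.63 CPM per kb in Sham to 3.91 to 8.11 CPM per kb after tFCI.

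On this scale per exon length, *Cdkn1a* was first in all 4 groups, with 28.5 ± 6.31 CPM per kb in WT-Sham, 51.5 ± 2.00 in miKO-Sham, 100.5 ± 2.73 in WT-tFCI and 106 ± 17.6 in miKO-tFCI (mean ± SD, n = 3). In WT-Sham the order below it was *Ccnd1* (9.60 ± 3.97), *Ccnd3* (8.37 ± 2.59), *Cdkn1b* (4.86 ± 1.83), *Cdk6* (3.72 ± 0.19), *Ccna2* (3.17 ± 0.31), *Ccne2* (1.81 ± 0.43), *Cdkn2c* (0.89 ± 0.18), *Ccnd2* (0.49 ± 0.21) and *Ccne1* (0.18 ± 0.14). Among these neighbours, *Ccnd1* and *Ccnd3*, *Ccnd3* and *Cdkn1b*, *Cdkn1b* and *Cdk6*, and *Cdkn2c* and *Ccnd2* overlapped over the replicates. In miKO-Sham the order below *Cdkn1a* was *Ccnd3*, *Ccnd1*, *Cdk6*, *Ccna2*, *Cdkn1b*, *Ccne2*, *Ccnd2*, *Cdkn2c* and *Ccne1*, where *Ccnd1* and *Cdk6*, *Ccne2* and *Ccnd2*, and *Ccnd2* and *Cdkn2c* overlapped. After stroke *Ccna2* was second in WT-tFCI (17.5 ± 1.10 CPM per kb), before *Ccnd3*, *Ccnd1*, *Ccne1*, *Cdkn2c*, *Cdk6*, *Ccne2*, *Cdkn1b* and *Ccnd2*, and the neighbours from *Ccne1* to *Ccne2* and the last pair overlapped. In miKO-tFCI, *Ccnd3* and *Ccna2* stood at 15.5 ± 7.99 and 13 ± 1.17 CPM per kb and overlapped, followed by *Ccnd1*, *Ccne1*, *Ccne2*, *Cdk6*, *Ccnd2*, *Cdkn2c* and *Cdkn1b*. The ratio of *Cdkn1a* to *Cdkn1b* per exon length was 5.02 to 7.49 in WT-Sham, 13.9 to 16.2 in miKO-Sham, 27.5 to 34.2 in WT-tFCI and 38.2 to 54.6 in miKO-tFCI, with no overlap between the groups. The ratio of *Cdkn1a* to *Ccna2* was 7.02 to 10.1 in WT-Sham and 11.6 to 14.1 in miKO-Sham, and 5.23 to 6.19 in WT-tFCI and 6.37 to 9.61 in miKO-tFCI.

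Whether the effect of genotype differed between Sham and tFCI was asked of all 10 genes in the same fit. The interaction passed for 3, *Ccnd1* in the positive direction and *Ccna2* and *Cdkn1a* in the negative, against 1.25% and 2.57% of all genes tested. Their adjusted p values lay between 0.0437 and 0.0475. The count was 0 to 2 when a single library was left out and 2 with the replicate number as a block in place of batch, where *Ccnd1* was lost (adjusted p = 0.0553). The direction of all 3 was kept in each of 21 alternatives.

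The other genes of the pathway were counted by the same thresholds. Of all genes tested, 20.9% rose and 11.7% fell in WT-tFCI vs. WT-Sham, and 21.9% and 13.9% in miKO-tFCI vs. miKO-Sham. The shares were 8.58% and 6.80% in miKO-Sham vs. WT-Sham and 4.08% and 4.71% in miKO-tFCI vs. WT-tFCI. In the interaction they were 1.25% and 2.57%. Counts in each list are to be read against these shares. Of 24 G1/S genes known as E2F targets, which supply replication factors and nucleotides, 22 rose and 0 fell in WT-tFCI vs. WT-Sham (median log2 fold change 2.27) and 21 rose in miKO-tFCI vs. miKO-Sham (1.73). In Sham 9 of them rose in miKO and 0 fell (0.61), whereas after tFCI 0 rose and 1 fell (-0.05), and the interaction was called lower for 2. *Rrm2*, a subunit of ribonucleotide reductase, rose by 4.65 ± 0.27 on the log2 scale in WT-tFCI vs. WT-Sham (adjusted p = 1.38e-08) and differed by -0.06 ± 0.20 in miKO-tFCI vs. WT-tFCI (adjusted p = 0.875). *Chaf1b*, a chromatin assembly factor subunit, rose by 4.52 ± 0.30 and differed by 0.08 ± 0.22. The replicative helicase subunits *Mcm5* and *Mcm6* rose by 3.31 ± 0.21 and 2.87 ± 0.19 and differed by -0.24 ± 0.19 and 0.04 ± 0.17 between the tFCI groups.

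Of 10 G2/M cyclins and kinases, all rose with stroke in both genotypes (median log2 fold change 5.12 in WT and 3.07 in miKO), and 5 fell and 0 rose in miKO-tFCI vs. WT-tFCI (-0.74). In Sham 2 rose in miKO (0.84), and 5 had a lower interaction (-1.56). *Mki67*, a proliferation antigen, differed by -1.24 ± 0.16 in miKO-tFCI vs. WT-tFCI (adjusted p = 0.000241) and *Top2a*, a topoisomerase of dividing cells, by -0.76 ± 0.14 (adjusted p = 0.00319). The mitotic cyclins *Ccnb1* and *Ccnb2* differed by -0.66 ± 0.17 and -1.23 ± 0.23 (adjusted p = 0.0262 and 0.00363). The summed CPM of the 10 genes was 17.2 to 19.6 (WT-Sham), 33.2 to 33.7 (miKO-Sham), 482 to 635 (WT-tFCI) and 271 to 331 (miKO-tFCI), so that the order of the groups was that of *Ccna2*.

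**Figure D5:**
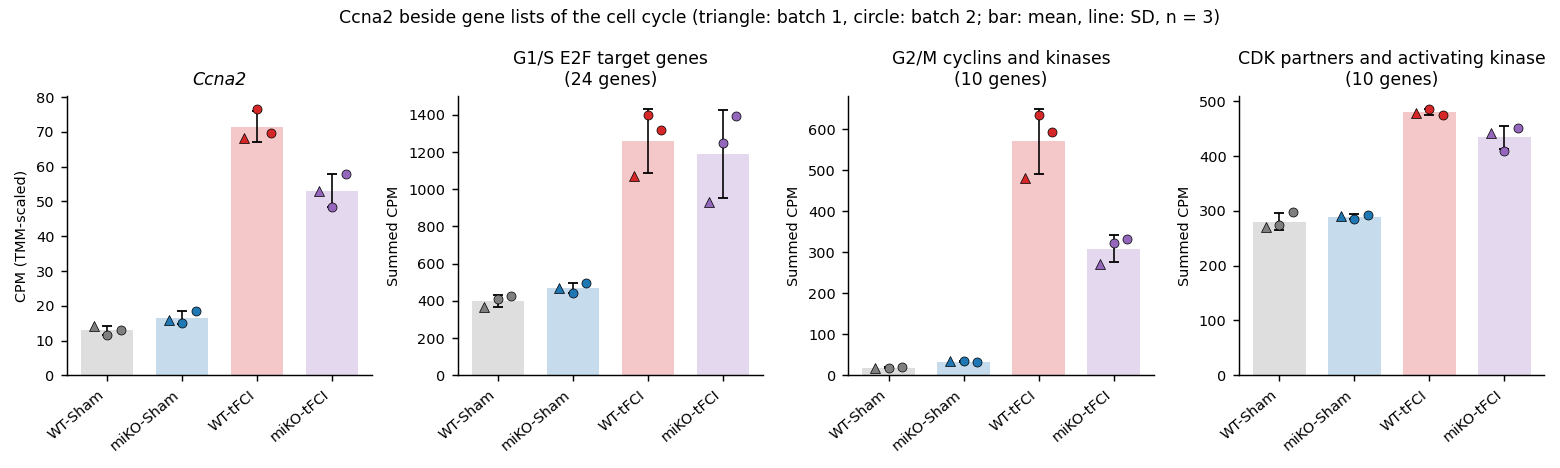
*Ccna2* in TMM-scaled CPM and the summed CPM of 24 G1/S E2F target genes, 10 G2/M cyclins and kinases, and 10 CDK partners with their activating and inhibiting enzymes (vertical axes, linear from 0), with triangles for batch 1, circles for batch 2, bars for the mean and lines for the SD (n = 3). The G2/M sum was 482 to 635 CPM in WT-tFCI and 271 to 331 CPM in miKO-tFCI, whereas the G1/S sums of 1069 to 1397 CPM and 929 to 1393 CPM overlapped.

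Of 10 CDK partners and activating enzymes, 4 rose and 0 fell in WT-tFCI vs. WT-Sham (median log2 fold change 0.55) and 5 rose and 0 fell in miKO-tFCI vs. miKO-Sham (0.50). Of the same genes 0 rose and 1 fell in miKO-tFCI vs. WT-tFCI (-0.31), in miKO-Sham vs. WT-Sham 1 rose and 0 fell (-0.08), and the interaction was lower for 1 (-0.03). *Cdk1*, the mitotic kinase, was the gene that passed in each of the last 3 and was among those that rose with stroke, with 4.36 ± 0.17 in WT-tFCI vs. WT-Sham (adjusted p = 4.74e-10), -0.69 ± 0.14 in miKO-tFCI vs. WT-tFCI (adjusted p = 0.00632), 0.68 ± 0.19 in Sham (adjusted p = 0.0231) and an interaction of -1.37 ± 0.24 (adjusted p = 0.00453). *Cdc25b* and *Cdc25c*, phosphatases that activate CDK1, rose by 3.39 ± 0.33 and 4.10 ± 0.59 in WT-tFCI vs. WT-Sham, and *Wee1*, a kinase that restrains CDK1, rose by 2.23 ± 0.34.

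Of the other CDK inhibitors, 4 of 5 were tested, of which 2 rose in WT-tFCI vs. WT-Sham (median log2 fold change 1.05), 1 in miKO-Sham vs. WT-Sham (0.20) and 1 in miKO-tFCI vs. miKO-Sham (0.91). In miKO-tFCI vs. WT-tFCI 1 fell (0.69), and the interaction was lower for 1 (-0.18). *Cdkn2d* (p19), a further INK4 inhibitor, rose by 1.92 ± 0.15 with stroke in WT (adjusted p = 2.84e-07) and by 1.94 ± 0.15 in miKO-Sham vs. WT-Sham (adjusted p = 7.93e-07). It differed by 0.24 ± 0.14 in miKO-tFCI vs. miKO-Sham (adjusted p = 0.187), with an interaction of -1.68 ± 0.21 (adjusted p = 0.00042). *Cdkn3*, a phosphatase that acts on CDK2, rose by 4.2 ± 0.35 with stroke in WT and fell by 1.09 on the log2 scale in miKO-tFCI vs. WT-tFCI (adjusted p = 0.0253). *Cdkn1c* and *Cdkn2b* passed in no comparison, with 1.13 ± 0.42 (adjusted p = 0.109) and 1.31 ± 0.69 (adjusted p = 0.251) in miKO-tFCI vs. WT-tFCI.

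Of 17 RB pocket proteins, E2F factors and their partners, 7 rose and 3 fell in WT-tFCI vs. WT-Sham (median log2 fold change 0.30), 7 rose and 1 fell in miKO-tFCI vs. miKO-Sham (0.53), 2 rose in miKO-Sham vs. WT-Sham (-0.05) and 0 passed in miKO-tFCI vs. WT-tFCI (-0.14). The activator *E2f1* rose by 4.46 ± 0.24 with stroke in WT (adjusted p = 8.28e-09) and by 0.88 ± 0.28 in miKO-Sham vs. WT-Sham (adjusted p = 0.0394). *E2f2*, a further activator, rose by 2.64 ± 0.28 and 1.07 ± 0.29 in these comparisons and had an interaction of -1.65 ± 0.39 (adjusted p = 0.029). The repressor *E2f8* and the dimerization partner *Tfdp1* rose by 3.6 ± 0.47 and 1.27 ± 0.17 with stroke in WT.

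Of 13 tested genes of the ubiquitin ligases that degrade these cyclins and inhibitors, 4 rose and 2 fell in WT-tFCI vs. WT-Sham (median log2 fold change 0.08) and 4 rose and 1 fell in miKO-tFCI vs. miKO-Sham (0.31). In miKO-Sham vs. WT-Sham 2 rose (0.09), in miKO-tFCI vs. WT-tFCI 2 fell (-0.12), and the interaction was lower for 3 (-0.02). *Cks1b*, the cofactor with which SKP2 recognizes p27, rose by 4.24 ± 0.23 with stroke in WT (adjusted p = 9.02e-09) and by 1.30 ± 0.25 in miKO-Sham vs. WT-Sham (adjusted p = 0.00193). *Dtl*, a substrate receptor for p21, rose by 4.11 ± 0.46 with stroke in WT. *Cdc20*, an activator of the anaphase-promoting complex, and *Cks2*, a CDK-binding protein, rose by 4.73 ± 0.29 and 1.63 ± 0.20 with stroke in WT and fell by 0.92 and 0.64 on the log2 scale in miKO-tFCI vs. WT-tFCI (adjusted p = 0.0186 and 0.0476).

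Of 22 tested genes of p53 and its targets, of which *Cdkn1a* is a further known target, 8 rose and 4 fell in WT-tFCI vs. WT-Sham (median log2 fold change 0.39) and 7 rose and 3 fell in miKO-tFCI vs. miKO-Sham (0.36). In miKO-Sham vs. WT-Sham 3 rose and 1 fell (-0.05), in miKO-tFCI vs. WT-tFCI 2 fell (0.12), and 1 had a lower interaction (-0.04). *Gdf15*, a stress cytokine, rose by 2.32 ± 0.27 with stroke in WT (adjusted p = 1.38e-05) and by 2.16 ± 0.27 in miKO-Sham vs. WT-Sham (adjusted p = 5.46e-05), with an interaction of -1.46 ± 0.36 (adjusted p = 0.0368). *Phlda3*, an inhibitor of AKT, rose by 4.65 ± 0.63 and 2.89 ± 0.70 in these comparisons, from only 1, 9 and 1 counts in WT-Sham. In WT-tFCI *Phlda3* was at 25.6, 7.16 and 5.24 CPM, highest in replicate 1. Its difference in log2 CPM between WT-tFCI and WT-Sham was 6.17 in batch 1 and 3.28 in batch 2. *Plk2*, a stress-induced kinase, rose by 1.72 ± 0.20 with stroke in WT and differed by 0.23 ± 0.21 between genotypes in Sham. *Btg2*, an antiproliferative gene, fell in all 4 comparisons between groups, by 1.37 with stroke in WT and by 0.76 in miKO-Sham vs. WT-Sham.

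Of 18 tested MYC, AP-1 and FOXO regulators, which act upstream of D-type cyclins and of *Cdkn1b*, 4 rose and 7 fell in WT-tFCI vs. WT-Sham (median log2 fold change 0.05), 5 rose and 6 fell in miKO-tFCI vs. miKO-Sham (0.23), 5 fell in miKO-Sham vs. WT-Sham (-0.35) and 4 fell in miKO-tFCI vs. WT-tFCI (-0.39), with 1 interaction in each direction (-0.06). *Jun* and *Fos*, which form AP-1, fell by 1.82 and 1.44 on the log2 scale in WT-tFCI vs. WT-Sham and by 0.96 and 0.64 in miKO-Sham vs. WT-Sham. In miKO-tFCI vs. WT-tFCI *Jun* fell by 0.97 (adjusted p = 0.00137), and *Fos* differed by -0.58 ± 0.16 (adjusted p = 0.0311), just short of the fold threshold. *Foxm1* and *Mybl2*, regulators of genes of the later cell cycle, rose by 3.78 ± 0.33 and 3.40 ± 0.45 with stroke in WT.

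The genes whose profiles were nearest to those of 4 members were found over the 12 libraries, by the root-mean-square distance between batch-adjusted log2 CPM values centred on each gene's mean, among 16450 genes. *Smc2* and *Smc4*, condensin subunits, and *Lig1*, the ligase of replicating DNA, were nearest to *Ccna2*, at 0.14, 0.18 and 0.19, where *Ccna2* itself varied by 1.05 around its mean. *Ahcy*, which hydrolyses S-adenosylhomocysteine, *AC167363.2*, and *Phf11b* were nearest to *Cdkn1a*, at 0.11, 0.13 and 0.17 against its own 0.79. *AC167363.2* lies opposite *Cdkn1a* with 273 shared exon bases, so that the reads of the pair cannot be told apart there. *Gm5812*, *Rap2a* and *Sbno2* were nearest to *Cdk6* (0.10 to 0.13 against 0.27), and *Gm12758*, *Golt1b* and *Trak2* to *Ccnd1* (0.20 to 0.23 against 0.45). Among the 10 genes themselves, *Ccna2* and *Cdkn2c* were the nearest pair, at 0.27.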

How the data were processed

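The 12 deposited files held counts per gene, made by the authors from paired-end reads of SMART-Seq v4 libraries. The submitters' processing notes name FastQC 0.11.9, Trim Galore, HISAT2 2.2.1, SAMtools and HTSeq 1.99.2 with mm10 and GRCm38.p6. Lines naming no gene held 61.5% to 69.3% of the reads and were left out. Of 55401 identifiers, 55141 were matched in GENCODE M21. Groups and batches came from the labels.

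Differential expression was tested with edgeR 4.0.16 in R 4.3.3 (filterByExpr, TMM factors 0.864 to 1.11, quasi-likelihood fit of group and batch over 12 libraries, common biological coefficient of variation 0.199) after tests on simulated data. Adjusted p values are Benjamini-Hochberg values over 16451 genes. CPM was batch-adjusted with limma 3.58.1 and a prior count of 2 for profile distances only. DESeq2 1.42.0 and other scalings, filters, batch terms and left-out libraries were alternatives. The replicate numbers 2 and 3 did not pair libraries across groups (correlations of their differences -0.03 to 0.12), and number 1 is the batch. All 10 members, *Hdac3*, at most 4 genes with the smallest p from each pathway list, and the 3 nearest profiles of 4 members were named. *Flt3*, *Clec9a*, *Ccr7*, *Xcr1*, *Fn1* and *F13a1* were named after their values were seen. Members and lists were chosen with earlier results of these data known. Counting error is large below 10 counts.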

Additional observations from a re-analysis of the deposited data

Results flagged for a closer look

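The effect of genotype differed between Sham and tFCI for 3 of the 10 genes by the interaction in edgeR's quasi-likelihood test. For *Ccnd1* the interaction was 1.08 on the log2 scale, with the miKO level below WT in Sham and overlapping WT after tFCI; its adjusted p was 0.0475 and ranged from 0.00138 to 0.136 over 21 alternatives, of which 12 lost it. For *Ccna2* it was -0.784 (adjusted p = 0.0449, range 0.028 to 0.173), lost in 16 of 21, and the 3 miKO libraries were above the 3 WT libraries in Sham and below them after tFCI. For *Cdkn1a* it was -0.808 (adjusted p = 0.0437, range 0.00757 to 0.17), lost in 13 of 21, and the miKO libraries were above WT in Sham in 3 of 3 and overlapped WT after tFCI. The cause of these differences was not tested. No group had the 4 samples needed to look for outlying libraries.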

How the results depend on the processing

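Of 50 values of the 10 genes in 5 comparisons, 24 kept direction and call in every alternative run, as did 13 of 19 called values, and 0 called values turned direction. The 6 called values that were lost in some alternatives were *Ccnd3* in WT-tFCI vs. WT-Sham, *Ccnd1* in miKO-Sham vs. WT-Sham, *Cdkn1b* in miKO-tFCI vs. miKO-Sham and the 3 interactions. Where a result changed, the cause was not tested. Genes with few counts, as *Ccne1* in Sham, are limited by depth.

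The members called in miKO-tFCI vs. WT-tFCI, 0, became 1 with DESeq2 size factors, upper-quartile factors, library size alone, no filter on low counts or the DESeq2 Wald test, and 2 with at least 10 counts in every library, in batch 2 only or with only the groups compared, and ranged from 0 to 1 when a replicate was left out. Those called in the interaction, 3, became 1 with DESeq2 size factors, library size alone, at least 10 counts in every library or batch 2 only, 0 without a batch term, and 0 to 2 when a replicate was left out. In miKO-Sham vs. WT-Sham 1 to 2 were called when a replicate was left out. In the fit with a replicate block in place of batch, the members called were 6 in WT-tFCI vs. WT-Sham, 0 in miKO-tFCI vs. WT-tFCI, 2 in miKO-Sham vs. WT-Sham, 8 in miKO-tFCI vs. miKO-Sham and 2 in the interaction, and it changed no call of a member other than that of *Ccnd1* in the interaction.

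All genes called in miKO-tFCI vs. WT-tFCI, 1446, became 2193 with no filter, 701 without a batch term, 2535 with only the groups compared and 616 to 1315 when a replicate was left out. Those in the interaction, 629, became 1272, 303, 971 with the DESeq2 Wald test and 281 to 883, respectively, and those in miKO-tFCI vs. miKO-Sham, 5887, became 3744 with at least 10 counts in every library and 4677 to 6093 when a replicate was left out.

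Uncalled values near 0 turned direction. In miKO-tFCI vs. WT-tFCI this held with library size alone for *Cdk6* (-0.011) and *Cdkn1a* (-0.034), and in batch 2 only for *Ccnd3* (-0.11), *Ccne1* (-0.21) and *Cdkn1a* (-0.086). With a replicate left out, the values ranged from -0.086 to 0.33 for *Ccnd3*, -0.22 to 0.33 for *Ccne1*, -0.011 to 0.63 for *Ccne2*, -0.094 to 0.18 for *Cdk6* and -0.046 to 0.13 for *Cdkn1a*. In WT-tFCI vs. WT-Sham, *Ccnd1* was 0.24 in batch 2 only and -0.23 to 0.27 with a replicate left out. In miKO-Sham vs. WT-Sham, *Cdkn2c* was -0.14 with library size alone, -0.11 in batch 2 only and -0.13 to 0.30 with a replicate left out, and *Ccne2* was -0.44 to 0.033. In miKO-tFCI vs. miKO-Sham, *Cdk6* was -0.015 to 0.28. In the interaction, *Ccnd2* was 0.14 with library size alone, 0.028 with at least 10 counts in every library, 0.25 without a batch term, 0.002 with DESeq2's Wald test and -0.73 to 0.65 with a replicate left out, and *Cdkn1b* was 0.058 with library size alone and -0.33 to 0.036 with a replicate left out.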
